A study of Homo sapiens with 6 samples.

Results

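The 10 genes described here encode carriers that move amino acids or creatine across the cell surface: SLC38A1, SLC38A2, SLC1A4, SLC1A5, SLC3A2, SLC7A5, SLC7A7, SLC7A11, SLC7A1 and SLC6A8. They were selected on measured values of the comparison described here, as carriers of the SLC38, SLC1, SLC3 and SLC7 families plus the creatine carrier, from a table of 63186 genes. Their differences between the groups are therefore given as a description, with a fitted log2 fold change and its standard error (SE) and no p-value. All 10 passed the filter on low counts, which left 15911 genes.

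The cells were RBE, a human cell line long established from intrahepatic cholangiocarcinoma (bile duct cancer arising inside the liver), and their RNA was sequenced. Cells at about 60% confluency received, with Lipofectamine 3000, either a control siRNA (si-Ctrl, 3 libraries) or siRNA against CHAF1A (si-CHAF1A, 3 libraries). CHAF1A is the large subunit of the histone chaperone CAF-1. Both groups had fresh medium at 24 h and were harvested at 48 h. The labels name 1 cell line and do not say how many siRNAs were used. The libraries held from 15643381 to 20918997 counts. In CPM (read counts after scaling the libraries alike), CHAF1A measured 51.5, 59.8 and 51.0 with the control siRNA, against 11.1, 12.9 and 11.2 with its own. Library si-Ctrl 2 stood apart from the other controls on the second principal component (-29.6 against 14.9 and 13.9, with 11.2% of the variance). All 7 biliary epithelium markers passed the filter, with a summed level of 1890 to 2237 CPM in control and 2412 to 2628 CPM in knockdown libraries (3 higher, 3 lower). CFTR, among those higher, had only 2, 3 and 6 counts in control libraries and passed the filter only through the knockdown libraries. Of 4 hepatocyte markers 0 passed, and of 6 stromal and immune markers 3 did, with a summed level of 11.3 to 14.3 CPM against 19.4 to 34.0 CPM. Their part in the carriers' differences was not tested.

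Cells take up amino acids through carriers with overlapping substrates. SLC38A1 and SLC38A2 use the sodium gradient to load the cell with glutamine, alanine and other small neutral amino acids. SLC1A4 and SLC1A5 swap neutral amino acids such as serine and glutamine across the membrane. SLC7 light chains reach the surface only when joined to the heavy chain SLC3A2: SLC7A5 brings in leucine and other large neutral amino acids, SLC7A7 exchanges cationic for neutral amino acids, and SLC7A11 imports cystine in exchange for glutamate. SLC7A1 carries arginine and lysine without a heavy chain. SLC6A8 takes up creatine with sodium and chloride. Several of these genes are known targets of ATF4, the transcription factor of the amino acid response, which binds with C/EBP proteins to a composite element.

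The bases around the gene starts are shown first, because that composite element can be read directly from them. RefSeq windows of 300 bases around annotated starts (GRCh38.p14) were found for 9 of the 10 genes, 17 windows in all, and none for SLC7A11. The element was searched as TGATGNAA on both strands, and 5 genes held it in a window. Each match is printed below 5′ to 3′ on the gene's strand, with the 8 matching bases in capitals and up to 10 bases on either side.
SLC38A1, chr12:46266503-46266530, minus strand: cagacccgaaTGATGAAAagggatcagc
SLC7A1, chr13:29595664-29595691, minus strand: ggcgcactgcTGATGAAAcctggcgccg
SLC1A5, chr19:46784894-46784921, minus strand: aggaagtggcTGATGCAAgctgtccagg
SLC1A4, chr2:64989382-64989409, plus strand: cggctcccgtTTGCATCAtctccagccg
SLC3A2, chr11:62881726-62881748, plus strand: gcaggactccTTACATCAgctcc
The SLC1A4 and SLC3A2 matches read as the element on the opposite strand. From the annotated start of the window that held them, the matches began at -97 (SLC1A5), -7 (SLC1A4), -4 (SLC38A1), 8 (SLC7A1) and 38 (SLC3A2). Those of SLC7A1 and SLC3A2 thus lie after it. Counted from the most upstream start, that window was number 1 for SLC7A1, 2 for SLC38A1 and SLC1A4, and 3 for SLC3A2 and SLC1A5. The most upstream windows of SLC38A1, SLC1A4, SLC3A2 and SLC1A5 held no match. Of all 35116 RefSeq windows 3.62% held the element, as did at least 1 window in 4.46% of 27305 genes and in 2.80% of the 11286 tested genes with a window. The 9 carriers had 1.89 windows each against 1.46 for tested genes. A match is a description, not a bound site. The 5 genes with the element included 2 that were lower (SLC38A1, SLC7A1), 1 that was higher (SLC3A2) and 2 that did not pass the test (SLC1A4, SLC1A5).

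The windows of SLC38A2 and SLC6A8, which were higher in knockdown cells, held no TGATGNAA. Those of the lower SLC7A5 and the higher SLC7A7 held none either, and bases outside the windows were not searched. The SLC38A2 and SLC6A8 windows are printed as examples without that element. GC boxes, searched as GGGCGG on both strands, are in capitals.
SLC38A2, chr12:46372724-46373023, minus strand: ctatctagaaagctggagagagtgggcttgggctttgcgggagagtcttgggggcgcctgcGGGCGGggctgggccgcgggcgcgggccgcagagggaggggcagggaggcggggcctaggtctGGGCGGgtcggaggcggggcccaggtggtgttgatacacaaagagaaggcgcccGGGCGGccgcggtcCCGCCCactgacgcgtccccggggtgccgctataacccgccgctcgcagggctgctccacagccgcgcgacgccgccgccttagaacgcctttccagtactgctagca
SLC6A8, chrX:153687676-153687975, plus strand: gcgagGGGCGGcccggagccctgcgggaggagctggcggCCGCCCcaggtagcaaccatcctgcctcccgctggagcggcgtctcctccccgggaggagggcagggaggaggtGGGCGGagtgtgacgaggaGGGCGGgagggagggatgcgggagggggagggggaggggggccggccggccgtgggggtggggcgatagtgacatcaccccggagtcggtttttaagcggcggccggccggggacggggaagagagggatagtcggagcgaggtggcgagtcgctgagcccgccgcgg
Each held 4 GC boxes, a motif in 45% of all windows. The SLC38A2 window held 33 CG pairs and the SLC6A8 window 32, where the median window held 14. GC boxes stood in windows of carriers of either direction: the windows of the lower SLC7A5 and SLC7A1 held 6 each with 44 and 49 CG pairs, a window each of SLC1A4 and SLC1A5 held 4, and the 3 windows of the higher SLC7A7 held 0 with 5, 1 and 1 CG pairs.

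Of the 10 carriers 4 were higher in si-CHAF1A cells (SLC6A8, SLC7A7, SLC38A2, SLC3A2), 3 were lower (SLC38A1, SLC7A5, SLC7A1) and 3 did not pass the test. Higher and lower mean an adjusted p under 0.05 by edgeR's quasi-likelihood test over all genes, which 18.5% of genes passed upward and 19.3% downward. For 4 carriers every knockdown library lay above every control library and for 4 every one lay below, where each held for 24.1% of genes (24.1% above, 24.1% below). Nothing is read from these shares, since the same comparison chose the genes. For the same reason the calls of the 10 carriers, kept or lost, are labels and not evidence. The median log2 fold change of the 10 was -0.03, beside 0.0 over all genes tested. Levels are CPM with TMM scaling, given as mean ± SD over n = 3 libraries.

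**Figure D1:**
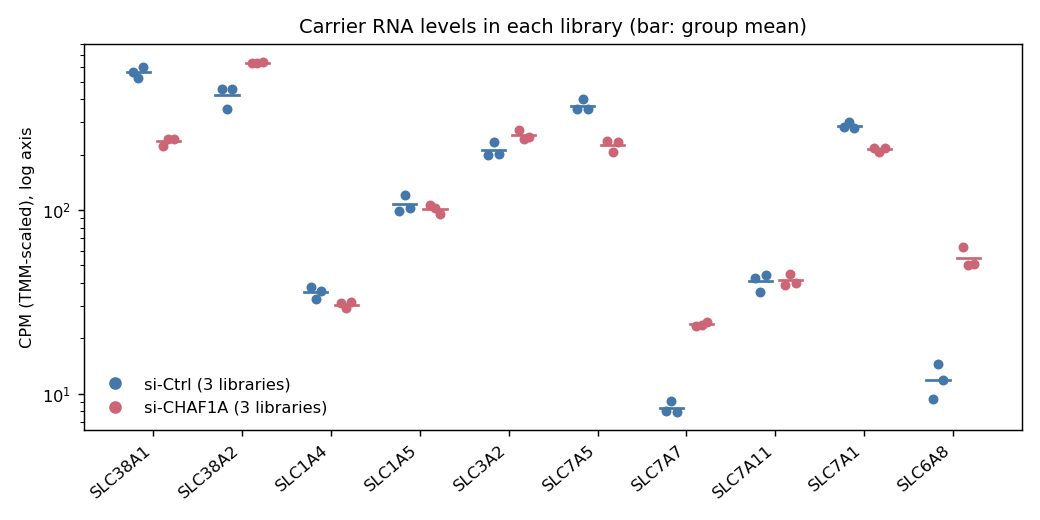
Level of each carrier in each library, in CPM on a log axis; points are libraries, 3 per group, and bars are group means. The groups separate at every carrier except SLC7A11 and SLC1A5, and the 2 groups of SLC6A8 lie farthest apart.

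The paired sodium-coupled carriers went in opposite directions. SLC38A1 (ENSG00000111371, chr12:46183063-46270017) was at 566, 527 and 598 CPM in control and 224, 243 and 243 CPM in knockdown libraries. The lowest control was more than double the highest knockdown library. The level went from 564 ± 35.4 to 237 ± 10.7 CPM, 2.38-fold lower (log2 fold change -1.25, SE 0.07). SLC38A2 (ENSG00000134294, chr12:46358189-46372867) was at 454, 356 and 458 CPM in control and 631, 632 and 644 CPM in knockdown libraries. The knockdown libraries sat close together above all controls, and si-Ctrl 2 was the lowest control. The level went from 423 ± 57.8 to 636 ± 7.19 CPM (log2 fold change 0.59, SE 0.08), with 0.47 when si-Ctrl 2 was left out. The 2 genes are neighbours on chromosome 12, 88171 bp apart and on the same strand. Within each library the level per kb of SLC38A1 over that of SLC38A2 was 0.821, 0.975 and 0.860 in control and 0.234, 0.253 and 0.249 in knockdown cells. The mean of this ratio went from 0.885 ± 0.0803 to 0.245 ± 0.00996. By the length of the transcript with the longest coding part it went from 2.53 ± 0.229 to 0.700 ± 0.0284, so which gene has the higher level depends on the length while the fall of the ratio does not.

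Neither neutral amino acid exchanger passed the test. SLC1A4 (ENSG00000115902, chr2:64988477-65023865) was at 38, 32.9 and 36.0 CPM in control and 31.0, 29.2 and 31.4 CPM in knockdown libraries. All knockdown libraries lay below all controls, but by a small margin. The difference, from 35.7 ± 2.54 to 30.5 ± 1.15 CPM, fell short of the threshold (log2 fold change of -0.22, SE 0.09). It passed (-0.28) when si-Ctrl 2 was left out, which raised the calls over all genes as well. Those went from 2944 to 3519 higher and from 3064 to 3709 lower. SLC1A5 (ENSG00000105281, chr19:46774883-46788594) was at 99.0, 121 and 102 CPM in control and 107, 102 and 95.6 CPM in knockdown libraries. The groups overlapped, with si-Ctrl 2 the highest of all. The fitted log2 fold change of -0.08 (SE 0.08) was short of the threshold.

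The heavy chain and its best known light chain moved in opposite directions. SLC3A2 (ENSG00000168003, chr11:62856102-62888875) was at 199, 234 and 203 CPM in control and 272, 243 and 250 CPM in knockdown libraries. The groups did not overlap, though si-Ctrl 2 came close to the lowest knockdown library. The mean went from 212 ± 19.5 to 255 ± 15.2 CPM (log2 fold change 0.27, SE 0.07). This call was lost without si-Ctrl 3 (0.23) and without si-CHAF1A 1 (0.22). SLC7A5 (ENSG00000103257, chr16:87830023-87869488) was at 356, 400 and 356 CPM in control and 238, 208 and 235 CPM in knockdown libraries. Every knockdown library was well below every control. Its mean went from 371 ± 25.6 to 227 ± 16.9 CPM, 1.63-fold lower (log2 fold change -0.71, SE 0.07).

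The light chain for cationic exchange had a low level and was higher in knockdown cells. SLC7A7 (ENSG00000155465, chr14:22773222-22829820) was at 8.06, 9.10 and 7.91 CPM in control and 23.4, 23.7 and 24.5 CPM in knockdown libraries. The 3 libraries of each group lay close together, with a wide gap between groups. The level went from 8.36 ± 0.644 to 23.9 ± 0.565 CPM, 2.85-fold higher (log2 fold change 1.51, SE 0.10). Its close neighbours OXA1L (180 bp away) and MRPL52 (58 bp away), named after their values were seen, were not past the threshold (log2 fold changes -0.05 and -0.15). Of the nearest tested genes of the other carriers, KLHDC4 (-0.26) and BANP (-0.39) beside SLC7A5 were lower. Beside SLC1A4, SERTAD2 was lower (-0.48) and CEP68 higher (0.36). Apart from SLC38A1 and SLC38A2 themselves, the rest were not past the threshold. They were SCAF11, AMIGO2, C4orf33, NOCT, SLC46A3, UBL3, WDR74, CHRM1, STRN4, AP2S1, DUSP9 and BCAP31. Over all genes 18.5% were higher and 19.3% lower, and a regional effect was not tested. SLC7A11 (ENSG00000151012, chr4:138164097-138242349), the cystine carrier, was at 42.8, 35.6 and 44.4 CPM in control and 39.1, 44.9 and 40.2 CPM in knockdown libraries. The groups overlapped, and the fitted log2 fold change of 0.02 (SE 0.09) was short of the threshold.

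The make-up of the light chains within a library followed from these values. Levels per kb, used here, divide CPM by the length of the union of a gene's exons. SLC7A5 over SLC3A2 was 1.96, 1.86 and 1.91 in control and 0.955, 0.931 and 1.03 in knockdown libraries. The lowest control ratio exceeded every knockdown ratio by a wide margin. By the length of the transcript with the longest coding part the means were 0.858 ± 0.0206 and 0.436 ± 0.0224, and the SLC7A7 share given next was 3.65% and 14.2%. SLC7A5 made up 89.4 ± 0.977% of the summed light chains SLC7A5, SLC7A6, SLC7A7, SLC7A8 and SLC7A11 in control and 78.6 ± 2.18% in knockdown cells. SLC7A7 made up 1.86 ± 0.0392% and 7.66 ± 0.382%, and SLC7A11 4.89 ± 0.812% and 7.08 ± 0.875%. The groups did not overlap in the share of SLC7A11, whose own level did not pass the test, and the sum is mostly SLC7A5. In bulk RNA, fewer cells with a transcript and less of it per cell cannot be told apart.

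SLC7A1 was lower and SLC6A8 higher. SLC7A1 (ENSG00000139514, chr13:29509410-29595688), the cationic carrier, was at 283, 301 and 280 CPM in control and 219, 207 and 217 CPM in knockdown libraries. The groups did not overlap. It went from 288 ± 11.1 to 214 ± 6.36 CPM, 1.34-fold lower (log2 fold change -0.43, SE 0.06). SLC6A8 (ENSG00000130821, chrX:153688099-153696593), the creatine carrier, was at 9.34, 14.5 and 11.8 CPM in control and 62.9, 50.4 and 51.0 CPM in knockdown libraries. The lowest knockdown library was more than 3 times the highest control, which was si-Ctrl 2. The mean level rose from 11.9 ± 2.58 to 54.8 ± 7.05 CPM, 4.57-fold higher (log2 fold change 2.19, SE 0.13), and the log2 fold change was 2.36 without si-Ctrl 2. It overlaps PNCK on the opposite strand, which had 3 to 6 counts in control and 12 in each knockdown library (log2 fold change of 1.37 with an SE of 0.46). PNCK passed the filter on low counts only through the knockdown libraries, so no p-value is given for it. Reads of the shared stretch cannot be told apart if strand was not used in counting. The pseudogenes SLC6A10P, SLC7A5P1 and SLC7A5P2 had 0 counts in all 6 libraries. How reads with several matches were counted is not stated here.

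**Figure D2:**
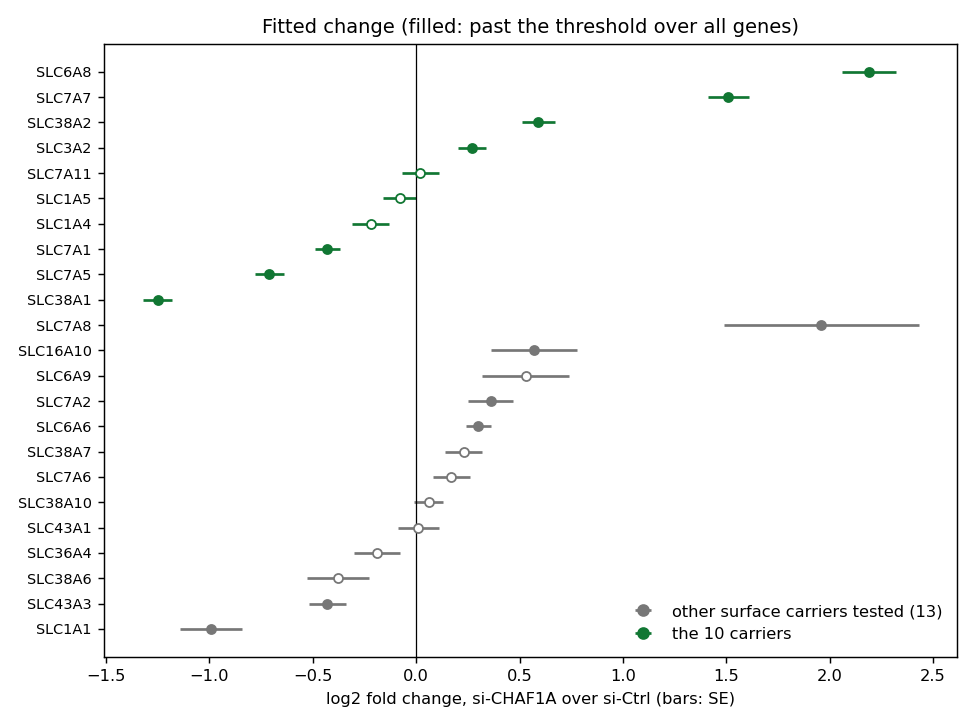
Fitted log2 fold change of si-CHAF1A over si-Ctrl for the 10 carriers and for the 13 other surface carriers tested, with bars of 1 SE; filled points passed the test over all genes. The 10 carriers spread from -1.25 (SLC38A1) to 2.19 (SLC6A8), and SLC7A8, at 1.96, has the widest bar.

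**Figure D3:**
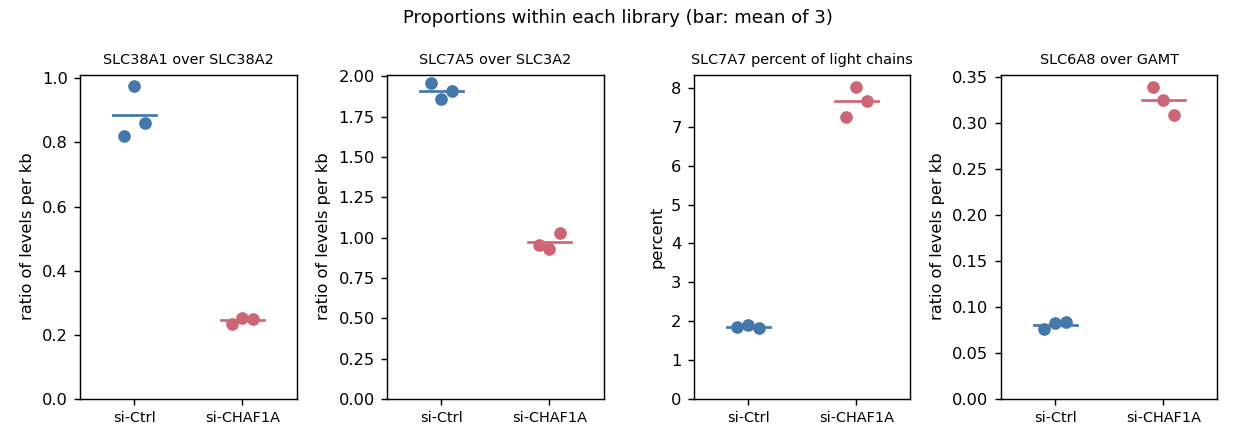
Within-library ratios of levels per kb (SLC38A1 over SLC38A2, SLC7A5 over SLC3A2, SLC6A8 over GAMT) and the SLC7A7 share of summed light chains in percent, 3 libraries per group with the mean as a bar and axes from 0. The groups do not overlap in any of the 4 panels.

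Ordered by level per kb in control cells, SLC7A5 led at 78.1 ± 5.40, followed by SLC38A2 (64.1 ± 8.76) and SLC38A1 (56.3 ± 3.54), whose ranges overlapped. The lowest were SLC6A8 (2.16 ± 0.470) and SLC7A7 (1.63 ± 0.126), whose ranges overlapped as well. In knockdown cells SLC38A2 led at 96.3 ± 1.09, with SLC3A2 (49.3 ± 2.94) and SLC7A5 (47.9 ± 3.55) next and overlapping, while SLC38A1 stood sixth at 23.6 ± 1.06. The order depends on the length used. By the length of the transcript with the longest coding part, SLC38A1 led in control cells at 217. That length is 2599 bp for SLC38A1 rather than 10015 bp, with most of the 3′ UTR left out. SLC7A5 (81.7) then came below SLC3A2 (95.4) and SLC38A2 (86.5) in control cells, and SLC6A8 (3.16) below SLC7A7 (3.41). In knockdown cells SLC38A2 still led at 130, and SLC38A1 was at 91.0, above SLC7A5 (50.1).

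Other carriers of the cell surface were mostly at low counts: of 39 listed 13 were tested and 6 had no count. Of the 13, 4 were higher and 2 lower (median log2 fold change 0.17). Without si-Ctrl 2 there were 6 and 4, where all genes gave 3519 higher and 3709 lower. Without si-CHAF1A 2 there were 2 and 3, where all genes gave 2349 and 2358. With all libraries 2944 genes were higher and 3064 lower. These are the 18.5% and 19.3% of all genes set beside this list and each list below. SLC1A1, a glutamate carrier, fell by 0.99 on the log2 scale (SE 0.15, edgeR adjusted p = 8.56e-05). SLC43A3 fell by 0.43 (SE 0.09, edgeR adjusted p = 0.00146), and SLC6A6, the taurine carrier, rose by 0.30 (SE 0.06, edgeR adjusted p = 0.00134). SLC7A8, another partner of SLC3A2, had a large but imprecise rise from 0.394 ± 0.146 to 1.56 ± 0.870 CPM (log2 fold change of 1.96 with an SE of 0.47). Control libraries held 7, 10 and 4 counts of SLC7A8, which passed the filter only through the knockdown libraries. It is counted among the higher genes, but no p-value is given for it. SLC7A2, a cationic carrier, rose by 0.36 (SE 0.11, edgeR adjusted p = 0.0179), a call lost without si-CHAF1A 2 or si-CHAF1A 3. Of 20 tested carriers of organelles 4 were higher and 4 lower (median 0.03; 2 lower without si-CHAF1A 3), among them the lysosomal SLC66A1 (0.39, edgeR adjusted p = 0.00476) and the mitochondrial SLC25A15 (-0.36, edgeR adjusted p = 0.00309).

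Of 7 tested genes of creatine handling 2 were higher and 0 lower (median 0.19), beside 18.5% and 19.3% of all genes. GATM, which makes the precursor of creatine, rose from 14.5 ± 1.10 to 20.2 ± 0.590 CPM (log2 fold change of 0.48 with an SE of 0.10, edgeR adjusted p = 0.00129). CKB, the brain-type creatine kinase, rose from 4.54 ± 0.709 to 7.45 ± 1.09 CPM (log2 fold change of 0.71 with an SE of 0.17, edgeR adjusted p = 0.00367). GAMT, which completes synthesis, did not pass the test (0.19) but did without si-Ctrl 2 (0.34). The ratio of SLC6A8 to GAMT per kb was 0.0762, 0.0818 and 0.0832 in control and 0.339, 0.325 and 0.308 in knockdown libraries.

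The amino acid response, through which ATF4 raises carriers and biosynthetic enzymes, held 4 higher and 5 lower genes of 25 (median -0.03), shares near the 18.5% and 19.3% of all genes. ATF4 itself (-0.03 on the log2 scale) and CHAC1 (-0.27) did not pass the test. PSAT1, of serine synthesis, fell from 67.9 ± 3.33 to 33.9 ± 2.38 CPM (log2 fold change of -1.0 with an SE of 0.08, edgeR adjusted p = 1.19e-07). CEBPG, a partner of ATF4, fell by 0.58 (SE 0.08, edgeR adjusted p = 6.33e-05). TRIB3 rose by 0.55 (SE 0.07, edgeR adjusted p = 2.48e-05), CEBPB by 0.48 and ATF3 by 0.53. ASNS, asparagine synthetase, was lower at low levels (3.80 ± 0.570 to 2.48 ± 0.341 CPM, log2 fold change -0.62, edgeR adjusted p = 0.0300), a call lost in 5 of 14 alternatives.

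Of 32 tested genes that sense amino acids for the growth kinase mTORC1, 8 were higher and 5 lower (median -0.02), also set beside 18.5% and 19.3% of all genes. With a library left out, 6 to 10 were higher and 4 to 7 lower, and without si-Ctrl 1 there were 6 higher and 7 lower. SESN2 is also counted in the amino acid response. The sestrins were all higher: SESN1 (0.69, edgeR adjusted p = 1.64e-05), SESN3 (0.65, edgeR adjusted p = 8.49e-05) and SESN2 (0.39, edgeR adjusted p = 0.000838). RHEB fell by 0.37 (edgeR adjusted p = 0.000415), and BMT2 fell by 0.77 (edgeR adjusted p = 0.000323). The activity of mTORC1 was not tested.

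Of 23 enzymes of glutamine and glutathione metabolism 3 were higher and 5 lower (median -0.10), and leaving out si-Ctrl 2 gave 10 lower. GOT1, the cytosolic aspartate aminotransferase, fell from 166 ± 5.53 to 104 ± 3.59 CPM (log2 fold change of -0.67 with an SE of 0.06, edgeR adjusted p = 9.11e-07). GPX4, which uses glutathione to repair lipid peroxides, fell from 167 ± 21.6 to 98.5 ± 4.90 CPM (log2 fold change of -0.76 with an SE of 0.08, edgeR adjusted p = 4.56e-06). GSR fell by 0.48 (edgeR adjusted p = 2.59e-05), and GFPT1 rose by 0.38 (edgeR adjusted p = 0.000247). Of 15 genes of the oxidative stress factor NRF2, which also drives SLC7A11, 3 were higher and 5 lower (median -0.09). ME1 rose by 0.60 (edgeR adjusted p = 1.79e-05) and HMOX1 by 0.59, while TXN fell by 0.45 and NQO1 by 0.34. NFE2L2, which encodes NRF2, did not pass the test (-0.12). Leaving out si-Ctrl 2 gave 5 higher and 7 lower genes of this list, and NFE2L2 was then among the lower (-0.21).

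Among 11 genes whose proteins bind carriers or control their stay at the surface, 3 were higher and 2 lower (median 0.15). TXNIP, an arrestin that takes glucose carriers from the surface, rose from 28.2 ± 2.18 to 64.6 ± 2.54 CPM (log2 fold change of 1.20 with an SE of 0.08, edgeR adjusted p = 2.11e-08). ARRDC3, of the same family, rose from 49.5 ± 0.520 to 90.9 ± 1.75 CPM (log2 fold change of 0.88 with an SE of 0.07, edgeR adjusted p = 7.12e-08). NEDD4L, a ubiquitin ligase for membrane proteins, fell by 0.28 (edgeR adjusted p = 0.00200). CD44, which binds SLC7A11, was lower by a small amount (-0.15, edgeR adjusted p = 0.0493), a call lost in 11 of 14 alternatives.

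**Figure D4:**
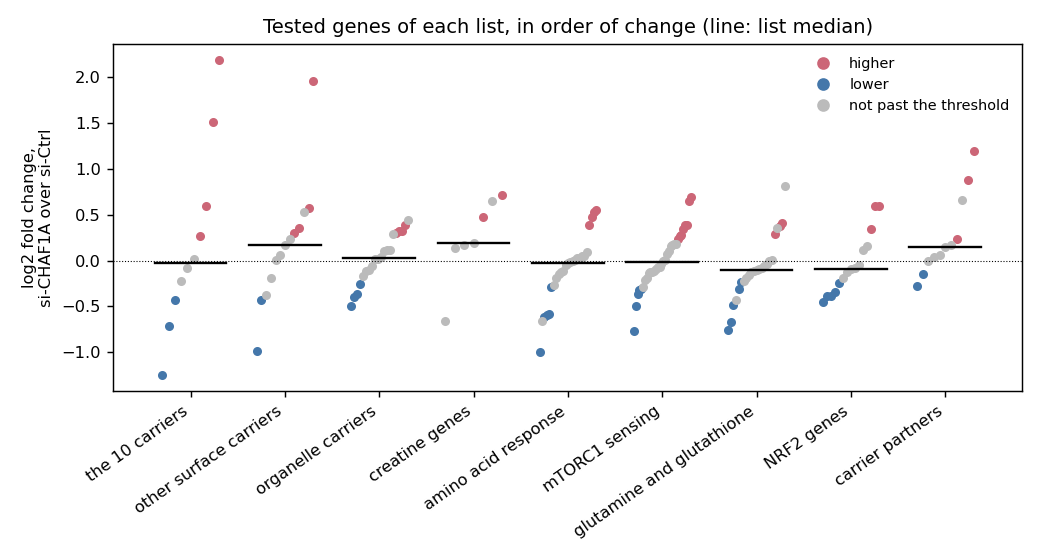
Fitted log2 fold change of every tested gene in the 10 carriers and 8 related lists, coloured by whether it passed the test, with a line at each list's median. Most lists hold both higher and lower genes, and the medians lie between -0.10 and 0.19.

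The 3′ UTRs of the carriers were searched for 2 words, GAAGAGA and AAGAGAA, which an earlier look at these data had linked to lower genes, so their presence is no independent evidence. In 1 transcript per gene (the longest coding part) they were found in SLC7A1 and SLC1A4, and in 29% of 12352 genes searched (37.8% of lower, 24.7% of higher genes). That transcript of SLC38A1 has a 3′ UTR of only 402 bp. A search of any coding transcript, added after this result was seen, found them in SLC38A1 as well (longest 3′ UTR 5907 bp), and in 36.3% of 12747 genes (46.2% of lower, 30.8% of higher genes). The siRNA sequences were not used here, and the words' part in the differences was not tested.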

How the data were processed

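The authors deposited gene-level read counts, whole numbers with no normalisation, for 6 libraries. Per the submitters' processing notes, fastp 0.20.1, HISAT2 2.1.0, SAMtools 1.9, featureCounts 2.0.1, StringTie 2.1.4 and hg38 were used. Not given in the sources used here: their settings, the annotation, and how strand and multi-mapping reads were handled. Strand-specific libraries are named in the design text. Columns named NC were read as negative control, which the labels do not state.

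Of 63186 genes (0 rows without a name), 15911 passed edgeR's filterByExpr (minimum count 10, minimum total 15). The groups were compared by a robust quasi-likelihood test (edgeR 4.0.16, R 4.3.3) with TMM scaling and no covariate, adjusted by Benjamini-Hochberg over all genes tested at 0.05, and the code was tested on simulated data. Since the labels say only that replicates are biological, p-values reflect the spread among these libraries. Counting error adds to that spread at low counts (126 to 437 for SLC7A7). SLC6A8, with 146 to 287 control counts, also differed between control libraries (9.34 to 14.5 CPM). Positions are from GENCODE 29 (GRCh38). No replicate pair was a duplicate.

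The members and gene lists were chosen with earlier results of these data known. Named genes were the 10 carriers, CHAF1A, up to 5 genes past the threshold per list with the smallest adjusted p, 7 genes named whether past it or not (ATF4, CHAC1, ASNS, NFE2L2, GATM, GAMT, CKB), near copies and genes overlapping a carrier; the nearest tested genes were added after their values were seen, and a result that the rule takes is not reported here. Alternatives covered scaling, filters, DESeq2 1.42.0, a fit without robust, a replicate block, each library left out, and the length behind levels per kb. The wider 3′ UTR search was added after its first result was seen.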

Additional observations from a re-analysis of the deposited data

How the results depend on the processing

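Over 14 alternatives (13 for SLC7A8) no carrier or named list gene past the threshold changed direction, and no scaling moved the median of all genes by more than 0.05 (log2). ATF4, not past it, went from -0.03 to 0.01 with upper quartile factors and 0.02 with library totals. These scalings gave 3439 higher and 2562 lower genes, and 3447 and 2455. Same-numbered libraries did not deviate together (correlations -0.0859, -0.0643 and -0.00313), so no shared effect was seen. With 3 libraries per group this cannot tell whether same-numbered libraries were handled in pairs. With a replicate block 2675 genes were higher and 2723 lower, against 2944 and 3064 without it, and 4 carriers were higher and 3 lower in both. Among carrier partners 2 genes were lower, and 1 with RLE factors, upper quartile factors, library totals, no filter, a minimum count of 30 or the replicate block, and 1 to 2 with a library left out. In the amino acid response 5 were lower, 3 by DESeq2, and 3 to 5 with a library left out. With a library left out, lower genes ran from 2 to 4 among other surface carriers, 4 to 10 among glutamine and glutathione enzymes and 2 to 6 among organelle carriers, and higher genes from 2 to 6 among other surface carriers and 3 to 5 among NRF2 genes. The upper ends of these surface, glutamine, organelle and NRF2 ranges came without si-Ctrl 2, and the lower ends without si-CHAF1A 1 for the amino acid response, si-CHAF1A 2 for surface higher and si-CHAF1A 3 for organelle. Over all genes, leaving out a library gave 2346 to 3519 higher and 2358 to 3709 lower, with the most of both without si-Ctrl 2. The causes were not tested. The word search in 3′ UTRs found 2 carriers in 1 transcript per gene and 3 in any coding transcript. SLC7A8, ASNS and PNCK had few counts, which limits the precision of their values.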
